A study of Mus musculus with 6 samples.

Results

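The circadian clock genes examined here were *Arntl* (also named *Bmal1*), *Clock*, *Per1*, *Per2*, *Per3*, *Cry1*, *Cry2*, *Nr1d1*, *Nr1d2* and *Dbp*, taken as a list of 10 symbols out of 23462 genes matched on the array. All 10 genes were on the array, with 19 probes in total, of which 16 were well above background on all 6 arrays. RNA of brown adipose tissue (BAT), the fat depot that burns fuel to make heat, was labelled with the dye Cy3, and each mouse was measured on an Agilent gene expression array of its own. The mice were male and 8 weeks old. The WT group held 3 wildtype mice and the KO group 3 miR-22 knockout mice, which by design lack the microRNA miR-22 in every tissue and came from the Jackson Laboratory. Strain background, housing temperature and the time of day at which BAT was collected are not given in the sources used here, so the transcripts of a mouse cannot be set against clock time.

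The molecular clock of a cell is a feedback loop of transcription. The proteins of *Arntl* and *Clock* bind as a pair to E-boxes and switch on the *Per* and *Cry* genes, the proteins of which return to the nucleus and repress the pair. The nuclear receptors REV-ERB alpha and beta, encoded by *Nr1d1* and *Nr1d2*, are also targets of the pair and repress *Arntl* through ROR elements, while the E-box target *Dbp* encodes a factor that acts on D-boxes. In tissues with a running clock, *Arntl* transcripts therefore peak at a time of day at which *Nr1d1* and *Dbp* transcripts are near their trough. In BAT, REV-ERB alpha is known as a repressor that links the clock to heat production.

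The groups differed in miR-22, which is processed from a hairpin into a pair of mature strands on mouse chromosome 11 (RefSeq, GRCm38.p6, plus strand). The mature sequences of the 3p strand, chr11:75463772-75463793, and the 5p strand, chr11:75463734-75463755, are shown because they are what the KO mice lack by their label, with the seed (bases 2 to 8) in capitals.
mmu-miR-22-3p: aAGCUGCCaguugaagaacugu
mmu-miR-22-5p: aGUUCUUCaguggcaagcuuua
The array held no probe for the mature microRNA, so its loss was not checked in these samples.

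Windows of 300 bases around the start sites of the clock genes, from 250 bases before to 50 after the start, were read from RefSeq (GRCm38.p6) for 9 of the 10 genes and 13 start sites. *Per2* had no entry. The windows of the genes past the unadjusted threshold with at least 1 treatment of marked spots, *Nr1d1*, *Nr1d2* and *Cry1*, and a window of *Arntl* are printed with the matches to clock elements in capitals. They lie at chr11:98775328-98775627 on the minus strand (*Nr1d1*), chr14:18239057-18239356 on the minus strand (*Nr1d2*), chr10:85185005-85185304 on the minus strand (*Cry1*) and chr7:113207261-113207560 on the plus strand (*Arntl*, the second of 2 start sites).
Nr1d1: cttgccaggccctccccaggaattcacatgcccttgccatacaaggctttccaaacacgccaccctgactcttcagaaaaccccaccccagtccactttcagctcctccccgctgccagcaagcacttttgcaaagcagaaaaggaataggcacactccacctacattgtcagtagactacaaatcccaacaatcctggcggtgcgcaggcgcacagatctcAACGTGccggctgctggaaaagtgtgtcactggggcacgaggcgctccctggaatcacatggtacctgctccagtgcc
Nr1d2: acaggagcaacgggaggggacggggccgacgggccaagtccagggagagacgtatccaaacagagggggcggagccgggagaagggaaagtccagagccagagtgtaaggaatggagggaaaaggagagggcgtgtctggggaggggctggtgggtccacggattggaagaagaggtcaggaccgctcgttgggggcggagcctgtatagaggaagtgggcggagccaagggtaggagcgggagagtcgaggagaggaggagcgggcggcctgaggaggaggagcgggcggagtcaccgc
Cry1: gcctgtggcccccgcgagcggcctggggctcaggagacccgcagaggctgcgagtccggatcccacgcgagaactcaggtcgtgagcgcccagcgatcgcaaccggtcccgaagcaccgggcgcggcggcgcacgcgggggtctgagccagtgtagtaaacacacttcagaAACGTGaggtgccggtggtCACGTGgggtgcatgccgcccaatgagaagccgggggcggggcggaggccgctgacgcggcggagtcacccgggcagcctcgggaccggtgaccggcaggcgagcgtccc
Arntl: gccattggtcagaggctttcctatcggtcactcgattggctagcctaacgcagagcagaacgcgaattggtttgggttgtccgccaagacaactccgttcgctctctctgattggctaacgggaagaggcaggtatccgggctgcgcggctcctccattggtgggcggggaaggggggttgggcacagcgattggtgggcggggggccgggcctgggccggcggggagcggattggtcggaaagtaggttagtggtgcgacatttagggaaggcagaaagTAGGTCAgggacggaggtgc
Both strands were searched, so that a match may be printed as its reverse complement. The E-box searched was CACGTG. An E-box variant was searched as CACGTT, which reads as AACGTG in the windows printed here. The ROR element, which REV-ERB proteins and their activating counterparts share, was searched as TAGGTCA. The same element was accepted with TGGGTCA as its letters. The D-box was searched as TTATGTAA or TTACGTAA and the cAMP response element as TGACGTCA. No matches of different elements overlapped in these windows. The *Nr1d1* window held the E-box variant at position -28 from the start and the *Cry1* window held an E-box at -60 and the variant at -79. The *Arntl* window held a ROR element at 31 bases past the start, and the *Nr1d2* window held none of these letters. Among the other clock genes, *Per1* had an E-box at -166, *Cry2* the variant at -166 and *Per3* a pair of D-boxes at -205 and -158, while the windows of *Clock* and *Dbp* held no match. Over all 32851 RefSeq windows of this length, 7.15% held an E-box, 4.68% the variant, 1.06% a D-box, 6.45% a ROR element and 1.79% a cAMP response element, and 0.0244% held at least 2 D-boxes. A match in a window describes its letters and was not read as a bound site.

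Each signal is given on the log2 scale relative to the 75th percentile of its array, so that 0 is the level of that percentile. The signal depends on the probe, and levels are compared between mice for the same probe and not between genes. The scanner software had marked 4.87 to 17.1% of the spots of an array as not uniform or as population outliers, most on the arrays of WT3 (17.1%) and KO1 (15.1%). Marked spots were left out of the fit, and differences with them kept are given beside. The brown adipocyte markers, among them *Ucp1* and *Cidea*, were above background on all 6 arrays for 12 of 12 genes. With marked spots kept, the mean log2 signal of 20 skeletal muscle genes varied from -4.76 in WT3 to 3.23 in KO2. The arrays thus differed in muscle RNA within both groups. Of 7 lymphocyte genes 5 were above background. The B-cell markers *Cd79a* and *Ms4a1* were not, while *Cd79b*, also a B-cell marker, was above background on all 6 arrays. A lower signal in bulk tissue can come from fewer cells of a type or from less RNA per cell, which cannot be told apart here.

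*Nr1d1*, a repressor of *Arntl*, was the clock gene past the unadjusted threshold when marked spots were left out. *Nr1d1* (probe A_51_P223776) was at -0.63, -0.76 and -1.02 in WT mice, against -1.77, -1.52 and -1.24 in KO mice. All 3 KO mice lay below all 3 WT mice, and KO1 was the lowest. The KO mean of -1.51 ± 0.26 (SD, n = 3) was 0.61 times the WT mean of -0.80 ± 0.20 (SD, n = 3) on the linear scale. The log2 difference, KO minus WT, was -0.71 (SE 0.19, 95% interval -1.15 to -0.26), with an unadjusted p of 0.0070 and an adjusted p of 0.133 by limma. *Nr1d1* thus passed the unadjusted threshold of 0.05 that the study's methods name and not the adjusted one. The arrays of WT1 and WT2 lay in row 1 of the slide and the other 4 in row 2, and with slide row as a block, which compares WT3 with the 3 KO mice, the *Nr1d1* difference was -0.49 (SE 0.27) with a limma p of 0.115 and an adjusted p of 0.638.

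*Nr1d2*, the close relative of *Nr1d1*, could not be tested with marked spots left out, because each of its probes had 3 marked spots. With all values kept, probe A_55_P2911007 was at 2.0, 2.05 and 1.77 in WT mice, against 1.07, 1.59 and 1.33 in KO mice. Probe A_52_P303891 was at 1.06, 0.71 and 0.70 in WT mice, against 0.15, 0.46 and 0.02 in KO mice. On both probes the KO mice were all below the WT mice, and the probes followed each other across the mice with an r of 0.893. The difference on the brighter probe was -0.61 (SE 0.17, limma p of 0.0101, adjusted p of 0.139), and on the dimmer probe it was -0.61 as well. With slide row as a block it was -0.44 with a p of 0.134 by limma. The unmarked values alone, 2.0 and 2.05 in WT1 and WT2 against 1.59 in KO2 on the brighter probe, were too few for a test.

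**Figure D1:**
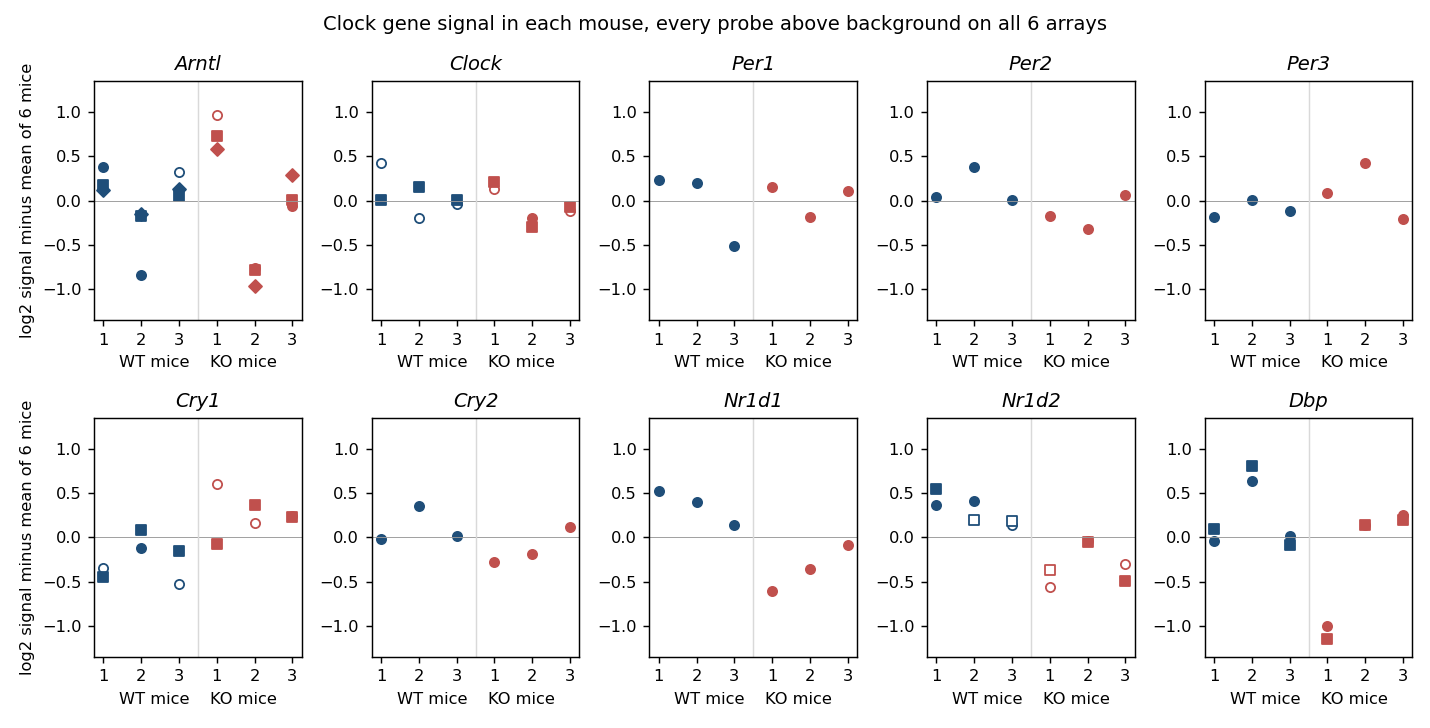
Signal of each clock gene in each mouse as the log2 value minus the mean of the 6 mice, for every probe above background on all 6 arrays (circles, squares and diamonds are different probes of a gene from brightest to dimmest, open symbols are marked spots, blue is WT and red is KO). The 3 KO mice lie below the 3 WT mice for *Nr1d1* and for both probes of *Nr1d2*, while *Arntl* and *Dbp* vary most between the mice.

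The activators of the loop overlapped between the groups. *Arntl* encodes the obligate partner of CLOCK, and its brightest probe, A_52_P267651, was at 0.16, -1.06 and 0.10 in WT mice, against 0.75, -0.98 and -0.28 in KO mice, with the spots of WT3 and KO1 marked. Its other probes had no marked spot. A_66_P127371 was at -2.44, -2.78 and -2.56 in WT mice, against -1.88, -3.39 and -2.60 in KO mice, and A_55_P2735445 was at -2.51, -2.78 and -2.50 against -2.05, -3.60 and -2.35. On all 3 probes the highest mouse was KO1, and the groups overlapped. The probes followed each other with r from 0.80 to 0.95. The *Arntl* difference on the brightest probe was -0.18 (SE 0.48, adjusted p of 0.852 by limma) from 2 mice per group. It was 0.10 with the marked spots kept, so its sign was not fixed. The interval of -1.41 to 1.06 from 2 mice per group left room for differences of more than 2-fold either way. From 3 mice per group, the difference was -0.03 (SE 0.36) on A_66_P127371 and -0.07 (SE 0.39) on A_55_P2735445.

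*Clock*, which encodes the other partner of the pair, was at 0.67, 0.81 and 0.66 in WT mice, against 0.86, 0.35 and 0.58 in KO mice on probe A_55_P2746404. The highest and the lowest value were both in KO mice. The difference was -0.11 (SE 0.17, adjusted p of 0.724 by limma). A brighter probe, A_52_P334670, had 5 marked spots and followed the first one with an r of only 0.318, with a difference of -0.12 with these spots kept. The dimmest probe, A_55_P2741789, was above background on 4 arrays.

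Among the repressors of the pair, *Per1*, *Per2* and *Per3* overlapped between the groups. *Per1*, which also responds acutely to cAMP and glucocorticoid signals, was at 2.01, 1.98 and 1.27 in WT mice, against 1.93, 1.59 and 1.88 in KO mice. WT3 was the lowest of the 6 mice, and the difference of 0.05 (SE 0.23, adjusted p of 0.923 by limma) became -0.20 without WT3 and 0.53 (p of 0.062 by limma) with slide row as a block. *Per2* was at 0.95, 1.30 and 0.92 in WT mice, against 0.75, 0.60 and 0.98 in KO mice, with KO3 inside the WT range, and differed by -0.28 (SE 0.17, adjusted p of 0.411 by limma). *Per3* was at -1.51, -1.32 and -1.44 in WT mice, against -1.24, -0.89 and -1.52 in KO mice. Its highest and lowest mice were both KO mice, and the difference was 0.20 (SE 0.19, adjusted p of 0.574 by limma). The second probes of *Per2* and *Per3* were dim, above background on 5 and 4 arrays.

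*Cry1* and *Cry2* encode the cryptochromes, the main repressors of the CLOCK and ARNTL pair. For *Cry1* the probe without marked spots, A_55_P2880103, was at -4.44, -3.91 and -4.14 in WT mice, against -4.07, -3.63 and -3.77 in KO mice. KO1 lay inside the WT range, and the difference was 0.34 (SE 0.19, p of 0.124, adjusted p of 0.383 by limma). The brighter probe, A_52_P420500, was at -1.22, -0.99 and -1.41 in WT mice, against -0.28, -0.71 and -0.64 in KO mice, with all spots but that of WT2 marked. On this probe all 3 KO mice were above all 3 WT mice, by 0.67 (SE 0.18, 1.59-fold, p of 0.0076, adjusted p of 0.127 by limma) with the marked spots kept, and by 0.87 (p of 0.0142 and adjusted p of 0.495 by limma) with slide row as a block. The probes of *Cry1* followed each other with an r of 0.487, so the size of the *Cry1* difference depended on the probe. On the probe without marked spots it was 0.14 with quantile normalization and 0.13 with normexp background correction (p of 0.460 and 0.462 by limma). On the brighter probe, with marked spots kept, it was 0.61 with quantile normalization. *Cry2* was at 1.43, 1.80 and 1.47 in WT mice, against 1.18, 1.27 and 1.57 in KO mice. The groups overlapped through KO3, and the difference was -0.23 (SE 0.17, adjusted p of 0.495 by limma).

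*Dbp*, the output gene of the loop, had the widest range over the mice. Probe A_55_P2032079 was at 3.04, 3.72 and 3.10 in WT mice, against 2.08, 3.22 and 3.34 in KO mice, and probe A_51_P180492 was at 2.54, 3.26 and 2.37 against 1.30, 2.59 and 2.64. KO1 was the lowest mouse on both probes, and the other 2 KO mice lay inside the WT range. The probes followed each other with an r of 0.989. The difference was -0.41 (SE 0.37, adjusted p of 0.563 by limma), and without KO1 it was -0.01, so that it rested on that mouse.

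**Figure D2:**
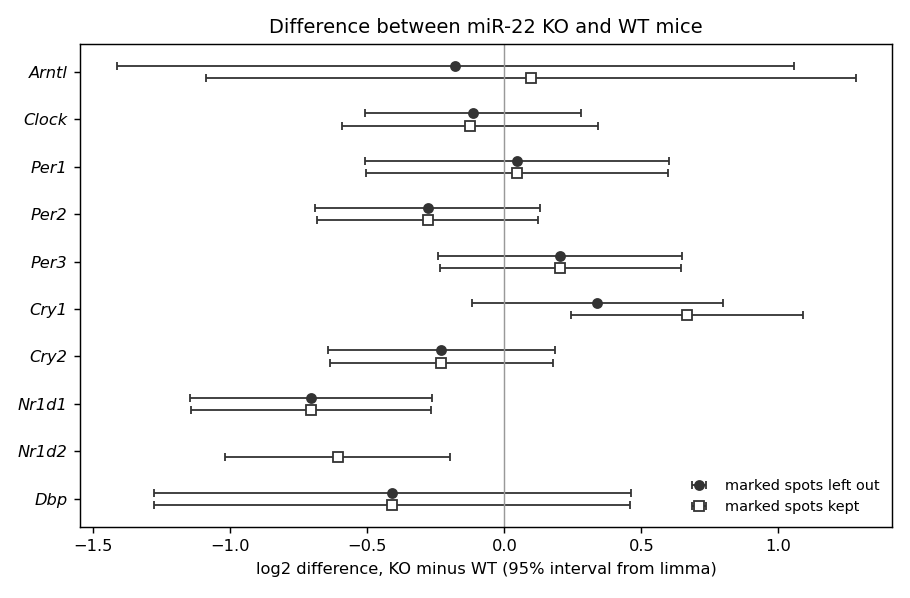
Log2 difference, KO minus WT, of each clock gene with its 95% interval from limma, with marked spots left out (filled circles) and kept (open squares). The intervals of *Nr1d1* (-1.15 to -0.26) and, with marked spots kept, of *Nr1d2* and *Cry1* do not reach 0, before adjustment over all genes.

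Of the 9 clock genes tested, 1 was lower in KO mice at an unadjusted p under 0.05 (*Nr1d1*), beside 8.82% of all 14711 tested genes, and 0 were higher, beside 10%. After adjustment 0 of 9 passed, beside 0.184% of all genes. With the marked spots kept, 2 of 10 were lower (*Nr1d1* and *Nr1d2*), beside 11.1% of 16110 genes, 1 was higher (*Cry1*), beside 9.47%, and 0 passed after adjustment, beside 0.472%. In each direction and with either treatment of marked spots, these counts differed by less than 1 gene from what the unadjusted share over all genes gives for a list of this size. The groups did not overlap for 1 of the 8 clock genes with 6 unmarked values on the probe tested, beside 28.9% of all such genes, and for 3 of 10 with the marked spots kept, beside 28.7%. The median difference of the 9 clock genes was -0.18 and that of all tested genes -0.03, with 6 of 9 and 7779 of 14711 below 0.

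The other genes of the clock pathway were described from 5 lists of 31 genes, of which 30 were on the array (no probe for *Rorb*) and 26 could be tested. Of these, 2 were lower and 3 higher in KO mice at an unadjusted p under 0.05, beside the same 8.82 and 10% of all genes, and 0 passed after adjustment. The median difference was -0.24, with 21 of 26 genes below 0, beside 52.9% of all tested genes. These signs are those of the brightest testable probe of each gene, and the other probes were not counted. Dimmer probes of *Timeless* and *Csnk1d*, without marked spots, differed by 0.54 and 0.55, against -0.29 and -0.19 on the probes used. Dimmer probes of *Gsk3b* and *Fbxl21* differed by -0.53 and -0.84, against -0.19 and 0.49. *Bhlhe40* and *Bhlhe41* encode related E-box repressors and lay on opposite sides. *Bhlhe40* was lower, with a difference of -0.79 (SE 0.23, adjusted p of 0.183 by limma) from 2 unmarked values per group and of -0.56 (p of 0.083 by limma) with marked spots kept, while *Bhlhe41*, a dim probe above background on 5 arrays, was higher by 0.58 (SE 0.21, adjusted p of 0.223 by limma). That call was lost with normexp background correction (0.0787, p of 0.595 by limma) and with quantile normalization (0.34, p of 0.124 by limma).

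Of the other activators, *Rora* differed by -0.19 and *Arntl2* by -0.29, neither past the threshold, and *Npas2*, a relative of *Clock*, was below background on all arrays. Of the D-box factors and output genes, *Wee1*, a kinase of the cell cycle with E-box control, was higher by 0.54 (adjusted p of 0.225 by limma), again from 2 unmarked values per group. With marked spots kept *Wee1* was higher by 0.56 (SE 0.12, p of 0.0028, adjusted p of 0.095 by limma). With the mean of its probes it was higher by 0.39 (p of 0.180 by limma). *Tef* differed by -0.33, *Hlf* by 0.43 and *Nfil3*, which represses at D-boxes, by -0.49, and none of the 3 passed the threshold. With marked spots kept, *Hlf* passed it as well, at 0.40 (p of 0.037, adjusted p of 0.216 by limma). The probes of *Tef* disagreed, since the dimmer probe A_52_P173309, without a marked spot, lay higher in each KO mouse than in any WT mouse, by 0.67 (SE 0.22, p of 0.0176, adjusted p over probes of 0.189 by limma).

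Of the kinases and ubiquitin ligases that set the stability of PER and CRY proteins, 1 of 8 was lower and 1 higher, beside the same 8.82 and 10% of all genes. *Csnk2a1*, a subunit of casein kinase 2, was lower at 2.10 ± 0.01 against 2.44 ± 0.12 (SD, n = 3), a difference of -0.33 (adjusted p of 0.235 by limma). Its p was above 0.05 when any single mouse was left out, with quantile normalization (-0.18, p of 0.127 by limma), with slide row as a block (p of 0.22 by limma) and with the mean of its probes (-0.12, p of 0.408 by limma). *Fbxl21*, a ligase subunit that binds CRY proteins, was higher by 0.49 (adjusted p of 0.237 by limma) on its brightest probe, where the groups overlapped. Its other probe A_52_P41239, without a marked spot and above background on 5 arrays, lay lower in each KO mouse than in any WT mouse. The difference there was -0.84 (SE 0.24, p of 0.0094, adjusted p over probes of 0.153 by limma). The mean of its probes differed by -0.18, so its direction depended on the probe. The cofactors of the loop, such as *Ncor1* and *Hdac3*, with which REV-ERB represses, were below 0 in 7 of 7 tested genes, beside 52.9% of all tested genes. They ran from -0.36 for *Nono* to -0.07 for *Sirt1*, with 0 of 7 past the threshold. The probes of *Ncor1* disagreed, with -0.21 on the probe used and -0.18 on A_66_P130142. Its dimmer probe A_52_P244895 lay higher in each KO mouse than in any WT mouse, by 0.43 (p of 0.0247, adjusted p over probes of 0.214 by limma). The dim probe A_55_P2734652 differed by 0.07. The dimmer probe of *Wdr5* differed by 0.33, from 2 unmarked values per group.

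**Figure D3:**
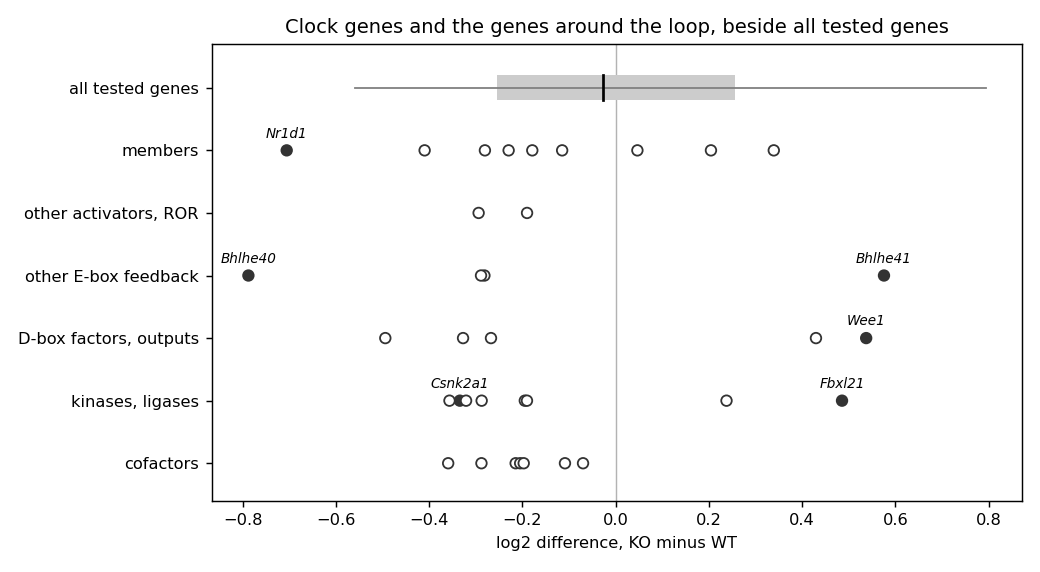
Log2 difference, KO minus WT, of each tested clock gene (members) and of the genes of the 5 other clock pathway lists, with marked spots left out. Filled points have an unadjusted limma p under 0.05, and for all 14711 tested genes the bar spans the quartiles, the line the 5th to 95th percentile and the tick the median of -0.03. *Nr1d1* and *Bhlhe40* lie below that line and every other clock pathway gene inside it.

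The mice of a group did not stand at 1 level of the clock genes. Over the 6 mice, *Dbp* had a range of 1.64, wider than 89.6% of the 11576 genes with 6 unmarked values, and *Arntl* (probe A_66_P127371) a range of 1.51, wider than 87.0%. The range of *Nr1d1* was 1.14, and those of the other 6 clock genes with such values lay between 0.51 and 0.81, against a median of 0.74 over all genes. Which group varied more depended on the gene and the probe. The SD of *Dbp* was 0.38 among WT mice and 0.70 among KO mice, and that of *Per1* 0.42 and 0.19. For *Arntl* it was 0.18 and 0.75 on probe A_66_P127371 and, with marked spots kept, 0.69 and 0.87 on its brightest probe. With 3 mice per group these SDs are imprecise, and their differences were not tested.

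On probes without marked spots, KO1 and KO2 lay at opposite ends of several clock genes. KO1 was the highest mouse for *Arntl* and *Clock* and the lowest for *Nr1d1*, *Dbp* and *Cry2*. KO2 was the lowest for *Arntl*, *Clock* and *Per2* and the highest for *Per3* and *Cry1*. On the brightest *Arntl* probe WT2 was the lowest mouse, at -1.06 against -0.98 in KO2, and neither spot was marked. With marked spots kept the brighter probe of *Cry1* gave KO1 as the highest. For *Clock* the brighter probe gave WT1 as the highest at 2.39, with WT2 and KO2 the lowest, both at 1.77. The deviation of *Arntl* from its mean minus that of *Dbp* was 1.73 in KO1, -0.91 in KO2 and -0.25 in KO3, and 0.22, -0.81 and 0.03 in the WT mice, so it varied within both groups and was largest in KO1. *Nr1d1* followed another order, since KO2, with the lowest *Arntl* on the probes without marked spots, also had less *Nr1d1* than every WT mouse. The array of KO1 had the smallest share of spots well above background, 55.8% against 62.3 to 66.5% on the others. The part of this in the values of KO1 was not tested.

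Correlations with *Arntl* across the 6 mice were computed for the other 8 clock genes with 6 unmarked values. The highest was that of *Clock*, with r = 0.82 and rho = 0.66 (exact permutation p of 0.081 and 0.175, adjusted p of 0.356 and 0.467). The lowest was that of *Dbp*, with r = -0.71 and rho = -0.83 (exact permutation p of 0.089 and 0.058, adjusted p of 0.356 and 0.411). The other 6 ran from -0.62 for *Cry1* to 0.34 for *Per1*, with *Nr1d1* at -0.12. Of the 8 correlations 0 had an adjusted p under 0.05, and 0.0028 is the smallest p that 6 mice allow.

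Values centred on the group means gave r = -0.79 for *Dbp* and 0.86 for *Clock*, with no test. Without KO1 and KO2, the mice farthest from the median of *Arntl*, r was -0.96 for *Dbp* and -0.63 for *Clock* over 4 mice, so the relation of *Clock* to *Arntl* rested on those 2 mice. Among the other pairs, *Per2* and *Cry2* followed each other with r = 0.93, *Cry2* and *Dbp* with r = 0.83 and *Nr1d1* and *Dbp* with r = 0.64. These are 3 of 36 pairs over the same 6 arrays, given with no test.

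**Figure D4:**
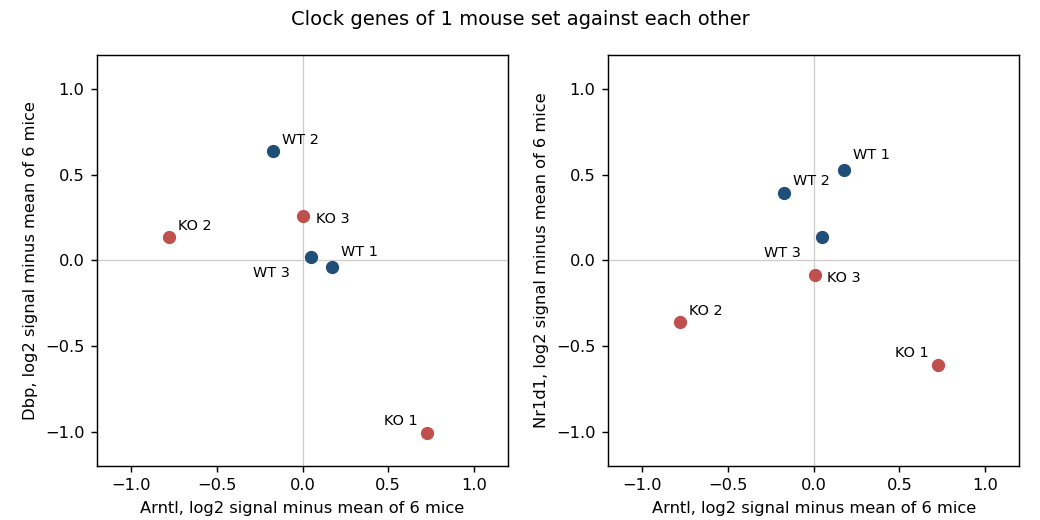
*Dbp* (left) and *Nr1d1* (right) against *Arntl* in the 6 mice, each as the log2 signal minus the mean of the 6 mice, blue for WT and red for KO. KO1, on the array with the smallest share of spots well above background (55.8%), stands alone with high *Arntl* and low *Dbp*. On the right the KO mice lie below the WT mice at low and at high *Arntl*.

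Lists of other genes varied between the same mice. The list means and the *Fkbp5* values below keep marked spots, while the calls leave them out. The mean log2 signal of 8 immediate early genes, which respond to acute stimuli, was 1.24 in KO1 and between -0.33 and 0.63 in the other mice. That of 6 glucocorticoid response genes lay between 2.0 and 2.33 in all 6, but 1 of the 5 tested was called higher, *Fkbp5*, at 0.42, 0.26 and 0.49 in WT mice and 0.97, 1.0 and 1.05 in KO mice. The mean of 12 brown adipocyte markers was 2.84, 3.14 and 2.92 in WT mice, against 2.76, 2.40 and 2.91 in KO mice, and that of 10 general adipocyte markers was 4.39, 4.71 and 4.37 against 4.04, 4.11 and 4.59. Both were highest in WT2, the mouse with the most *Dbp*, and KO3, which had the least *Nr1d1* difference from WT, was inside the WT range of both lists. KO1, with the lowest *Nr1d1*, was lowest on the general adipocyte list, but KO2 was lowest on the brown adipocyte list. At an unadjusted p under 0.05, 2 of 7 tested brown adipocyte markers and 2 of 8 immediate early genes were called lower in KO mice. Beside the counts of each list here, 8.82% of all 14711 tested genes were called lower and 10% higher. Macrophage markers lay between 0.99 and 1.56. Lymphocyte markers were at -4.30, -3.53 and -3.89 against -3.45, -3.45 and -3.54, with 1 of 5 tested called higher, and nerve markers differed by -0.39, with 2 of 6 called lower. The part of these lists in the clock gene differences was not tested, except that with the skeletal muscle list as a covariate *Nr1d1* differed by -0.80 (p of 0.0045 and adjusted p of 0.143 by limma).

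The genes with the pattern over the mice most like *Dbp*, the clock gene with the widest range, were taken from 2124 genes above background on all arrays, without marked spots and with a range of at least 1. The highest r to *Dbp* were those of *Miip* (0.99), *Speer4a* (0.99), *Gm4297* (0.98), *Ppara* (0.98) and *Zfp933* (0.96), of which *Speer4a* and *Gm4297* belong to families of near-identical copies and are uncertain. *Ppara*, which encodes the fatty acid receptor PPAR alpha, was at 3.40, 3.75 and 3.40 in WT mice, against 2.68, 3.28 and 3.54 in KO mice. As for *Dbp*, KO1, on the array with the smallest share of spots well above background, was its lowest mouse and WT2 its highest. The lowest r were those of *Ammecr1* (-0.96), *Saa3* (-0.96), *Edn1* (-0.95), *Sec61a2* (-0.95) and *Gpr37l1* (-0.94). *Saa3*, an acute phase gene, was at -3.19, -4.50 and -3.12 in WT mice, against -1.30, -2.93 and -3.16 in KO mice, highest in KO1 and lowest in WT2. These are likenesses over 6 mice, picked from the ends of 2124 values, of which 27 exceeded 0.9 in size.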

How the data were processed

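BAT RNA of 3 WT and 3 KO mice was measured on 1-colour arrays. The authors deposited background-subtracted intensity values of each spot, unscaled between arrays, made with Agilent Feature Extraction (version 11.5.1.1 per the file headers, 10.7 in the submitters' processing notes). They also deposited log2 values of 27497 probes, used as an alternative. Each value was scaled to the 75th percentile of its array (controls excluded) and taken as log2. No spot was saturated, and well above background were 55.8% (KO1) to 66.5% (WT1) of the spots. Marked spots were left out of the main fit but kept in the means of the marker and response lists and in the muscle covariate. Probes well above background on at least 3 arrays, with 2 unmarked values per group, were kept. Of 56605 probes, 33767 were matched to genes through their RefSeq accession (GRCm38.p6), and the brightest testable probe stood for a gene. KO and WT were compared with limma 3.58.1 (R 4.3.3, package data.table in version 1.17.8), two-sided, with Benjamini-Hochberg adjustment over all tested genes. The SAM test of the study's methods was not run, since it regroups the samples. Correlations used exact permutation tests (scipy 1.17.1). Precision is limited by the 3 arrays per group. The members, lists, naming rule and tests were chosen with earlier results of these data known. Named genes were all members, pathway genes at an unadjusted p under 0.05 and the 5 most like and 5 least like the member with the widest range, besides others named for their roles or as markers. A pathway gene and a lymphocyte marker are not reported here and were left out of the lists and counts. The steps were tested on simulated data. Alternatives covered scaling, background, marked spots, filters, probes, test, slide row, muscle signal and each mouse left out.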

Additional observations from a re-analysis of the deposited data

How the results depend on the processing

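*Nr1d1* was lower in KO mice under all 18 other settings tried, from -0.84 to -0.49, and its unadjusted p was under 0.05 in 17, the exception being slide row as a block. Its adjusted p ran from 0.077 to 0.638. Clock genes lower in KO mice numbered 1, but 2 with marked spots kept (also with quantile normalization, with the processed table or with any single mouse left out) and 0 with slide row as a block. Those higher numbered 0, but 1 (*Cry1*) with marked spots kept, alone, with quantile normalization, with slide row as a block or with any single mouse left out. Combinations with kept marked spots were chosen after seeing the data. Of the other pathway genes 2 were lower, against 5 with median scaling, 4 by the methods' t-test, 1 with quantile normalization, with marked spots kept, with no filter or with the mean of probes, and 0 with the processed table, with slide row as a block or with marked spots kept and quantile normalization or the processed table. They numbered 0 to 2 when 1 mouse was left out, with 0 without WT1 or WT2 and, with marked spots kept, without WT3. Higher were 3, against 1 with median scaling, normexp, no filter, the mean of probes, the methods' t-test or slide row as a block, and 0 with the processed table (also with marked spots kept). They numbered 0 to 2 without 1 mouse (0 without KO3, 1 without WT1, WT2, WT3 or KO2), and 1 to 3 with marked spots kept (1 without WT3). The share of all genes called is given only for the main setting and with marked spots kept. Under the other settings these counts were not set against it, so they are not a result about the clock pathway. Median scaling put differences lower, with *Nr1d1* at -0.78 against -0.71 and *Clock* at -0.19 against -0.11 in the main setting. Correlations with *Arntl* past the adjusted threshold numbered 0 throughout.

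Signs of small differences turned. *Arntl* was at 0.10 with marked spots kept, 0.08 with quantile normalization added, 0.05 without WT1 and 0.35 without KO2. With marked spots kept it ran from -0.36 to 0.50 when 1 mouse was left out, with 0.31 without WT1, 0.28 without WT3 and 0.15 without KO3. *Clock* was at 0.064 with the mean of probes, ran from -0.25 to 0.0072 (without KO2) when 1 mouse was left out, and from -0.26 to 0.0556 (without WT1) when marked spots were also kept. *Per1* was at -0.0248 with median scaling, -0.036 with normexp and -0.0902 with the muscle covariate, and ran from -0.20 (without WT3) to 0.18 (without WT1) when 1 mouse was left out, with -0.0181 without KO1. *Wee1* was at -0.16 without WT2, on another probe, and at 0.69 without WT1, and *Fbxl21* at -0.18 with the mean of probes. The r with *Arntl* was 0.0413 for *Nr1d1* with quantile normalization, 0.0416 for *Nr1d1* with the processed values, 0.11 for *Cry2* with normexp, -0.28 for *Per2* and 0.16 for *Cry1* with marked spots kept, and -0.12 for *Per2* with the mean of probes. The cause of these turns was not tested, apart from the other probe. No paired analysis was possible because the labels give the groups no shared replicate numbers.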
